A study of Mus musculus with 288 samples.

Results

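Mouse embryonic stem cells sampled 48 h after release from 2i were ranked by their Zfp42 (Rex1) level, and the 31 cells with the highest level (Rex1-high) were set against the 31 with the lowest (Rex1-low). These 62 cells were drawn from 93 cells that passed the filters at 48 h, and the 31 cells between them were kept as a middle group. The series holds 288 wells of scNMT-seq, which separates and sequences the RNA and the DNA of each cell, and only the RNA counts were used here. All wells are labelled as E14 cells of strain 129/Ola. The cells were grown first in 2i+LIF, a medium with the MEK inhibitor PD0325901 and the GSK3 inhibitor CHIR99021. They were sampled at 0 h (label D0), 24 h (D1) and 48 h (D2) after a change to serum with LIF. The D2 cells were therefore all exposed to the same release, and Rex1-high and Rex1-low cells, selected on their measured Zfp42 level, carry no other label that sets them apart. The labels show 1 sorted plate per time point and no replicate culture, so cells are not replicates of a condition and no test, standard error or p-value is given.

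Rex1, encoded by Zfp42, is a zinc finger protein related to YY1 and a widely used marker of naive pluripotency. Its level is known to differ between cells in serum and to be lost as cells leave the naive state. In 2i the naive network, which includes Nanog, Esrrb, Klf4 and Tfcp2l1, is held active, whereas Oct4 (Pou5f1) and Sox2 are shared by naive and primed cells.

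Zfp42 lies on the minus strand of chromosome 8 (GRCm38, chr8:43295063-43306980, GENCODE M21). Its coding sequence falls within 1 exon, chr8:43295599-43296462, of the 4 in a coding transcript. The 250 bases before the RefSeq start sites (GRCm38.p6) of Zfp42, which set the groups, and of Nanog, a naive factor described below, are shown. Capitals mark TTTGCAT, 7 letters of the octamer that OCT4 binds, which was searched on both strands.
Zfp42, chr8:43307010-43307259, minus strand: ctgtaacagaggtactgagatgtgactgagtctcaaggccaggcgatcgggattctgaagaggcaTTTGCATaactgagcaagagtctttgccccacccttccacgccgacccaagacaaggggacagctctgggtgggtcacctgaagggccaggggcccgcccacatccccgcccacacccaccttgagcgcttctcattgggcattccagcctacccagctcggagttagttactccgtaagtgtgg
Nanog, chr6:122707239-122707488, plus strand: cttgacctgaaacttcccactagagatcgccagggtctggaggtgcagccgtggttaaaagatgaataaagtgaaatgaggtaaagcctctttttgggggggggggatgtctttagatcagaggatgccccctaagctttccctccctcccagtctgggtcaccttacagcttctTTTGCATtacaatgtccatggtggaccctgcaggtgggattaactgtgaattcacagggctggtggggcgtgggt
The letters begin 185 bases before the Zfp42 start and 75 bases before this Nanog start, and 4.65% of 27025 genes hold them in such a window. Of the genes compared below, 2285 of 3253 were matched and 2.85% of these hold them, as do 2 of 112 matched genes that were higher by 2-fold or more in Rex1-high cells (1.79%) and 3 of 77 that were lower (3.90%). A match is a description of the sequence and not a site of binding.

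The ranking used the share of a cell's reads that Zfp42 held, as CPM (1 read in 200000 is 5 CPM), so the Zfp42 values below describe how the groups were chosen. Rex1-high cells had 1523 to 4465 CPM with a median of 2120, the middle cells 837 to 1484 with a median of 1190, and Rex1-low cells 11.6 to 818 with a median of 481. The means were 2225 ± 708, 1152 ± 181 and 467 ± 237 CPM (SD between cells, n = 31 each), a ratio of 4.76 between the outer groups. The levels formed a gradient with no gap at either limit. The last cell inside Rex1-high had 1523 CPM and the first outside it 1484 CPM, and the last cell inside Rex1-low had 818 CPM and the first outside it 837 CPM. Zfp42 had a read in all 93 cells. When cells were ranked on 1 of a pair of equal random parts of their reads, 30 of the 31 Rex1-high and all 31 Rex1-low cells stayed in their group. These parts belong to the reads that set the groups, so this covers the error of read sampling only and is no support for the groups.

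**Figure D1:**
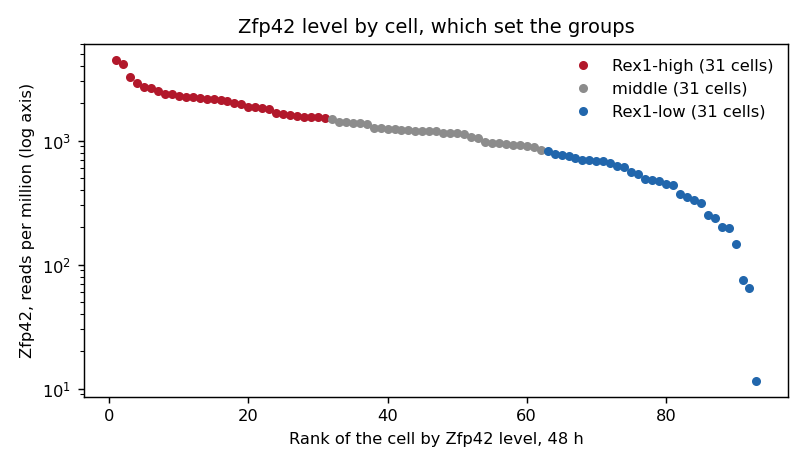
Zfp42 level of each of the 93 cells at 48 h in CPM (log axis) against its rank, coloured by group. The curve has no step at the limits of the groups, and 1 cell at 11.6 CPM stands below the next lowest at 65.03 CPM.

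Depth and detection differed little between the groups. The median was 2051571 reads in Rex1-high and 2300887 in Rex1-low cells, with ranges of 1018873 to 9812323 and 564743 to 8955306. After each cell was thinned to 200000 reads, the median number of detected genes was 4058 in Rex1-high, 3900 in middle and 3801 in Rex1-low cells, a log2 ratio of 0.09 between the outer groups. Over the 93 cells Spearman's rho of Zfp42 was -0.05 with reads, 0.08 with detected genes and 0.02 with the mitochondrial share. Of the Rex1-high cells 12 came from plate columns 1 to 6, and of the Rex1-low cells 16. Fewer genes were detected per cell at 48 h than at 0 h: at the same 200000 reads the median cell of the 30 highest in Zfp42 at 0 h had 7812.5 detected genes. Capture and RNA content cannot be told apart here.

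Oct4 did not separate the groups, apart from 1 cell. Pou5f1 had a read in all 31 Rex1-high cells, all 31 middle cells and 30 of the 31 Rex1-low cells. That last Rex1-low cell also had the lowest Zfp42 level, and it stood apart in several gene groups (values at 200000 reads, where 1 read is 5 CPM). It had no read of Pou5f1, which ranged from 250 to 3410 CPM in the other 92 cells. It had none of Tdgf1, the Nodal co-receptor Cripto, which had a read in 87 of the other cells, none of the methyltransferase cofactor Dnmt3l (86 of the others), and none of Dppa2 (83) or Dppa4 (75).

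The same cell held the highest level at 48 h of keratins and of Lefty genes. Krt8, an epithelial intermediate filament gene, was at 5615 CPM against a median of 0 and a maximum of 430 CPM in the other 92 cells. Its partner Krt18 was at 3370 CPM against a maximum of 235. Krt7 was at 860 CPM, Krt19 at 390 and the transcription factor gene Tfap2c at 325, against maxima of 125, 35 and 305 CPM. The Nodal inhibitors Lefty1 and Lefty2 were at 3310 and 6130 CPM, against maxima of 2005 and 1395. The naive factor Tfcp2l1 was at 4750 CPM, also above every other cell, where the maximum was 2495. Dppa5a, at 23515 CPM, lay within the range of the others. Of the 8 trophectoderm markers listed, 6 had no read in it. It had 1037159 reads and 3522 detected genes at equal depth, and lacked a read of 15.6% of the 957 genes found in 90% or more of the other cells. That share ranked 4th among the 93 cells, whose others ran from 0.423% to 29.02%. The cell is given no type here and stays in Rex1-low. Results that change by over 1.5 times without it are given both ways.

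**Figure D2:**
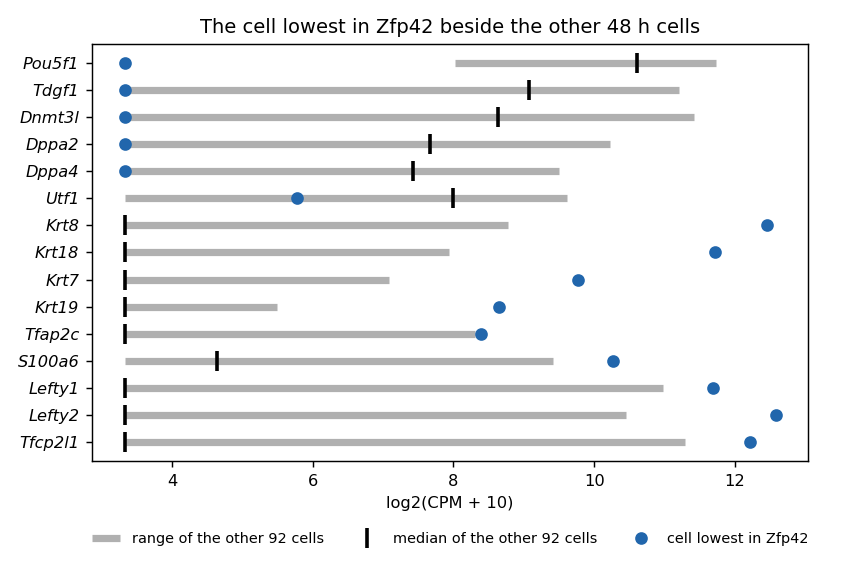
Levels of 15 genes in the cell lowest in Zfp42 (blue point) on a log2(CPM + 10) scale, beside the range (grey) and median (black mark) of the other 92 cells at 48 h. The cell lies outside the others below for Pou5f1 and above for the keratins, Tfap2c, S100a6, both Lefty genes and Tfcp2l1.

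A gene was compared if 50% or more of the Rex1-high or of the Rex1-low cells had a read of it at 200000 reads, which left 3253 genes without Zfp42. Of these, 136 (4.18%) were higher by 2-fold or more in Rex1-high than in Rex1-low cells and 93 (2.86%) were lower, on the scale of log2((mean CPM + 10)/(mean CPM + 10)). The log2 ratio was above 0 for 1690 genes (52%), its median was 0.02, and 90% of genes lay between -0.81 and 0.91. The large ratios belonged to genes found in a part of the cells. Among the 812 genes read in 90% or more of the cells of both groups, 0 were past 2-fold in either direction, and the 312 genes with a read in every Rex1-high and Rex1-low cell also gave 0. Of the 136 higher genes, 112 (3.44% of genes compared) were higher on both sides of the plate (columns 1 to 6 and 7 to 12, each split into its own outer groups of 15 cells), and of the 93 lower genes 78 (2.4%) were lower in both. The middle cells lay between the outer groups for 102 of the 136 and 67 of the 93. These genes were chosen by the gap between the outer groups, so a middle value is likely from the choice itself. No graded relation to Zfp42 is read from these counts. A gene could meet the detection limit through 1 group alone, and 82 of the 136 higher genes met it only in Rex1-high and 45 of the 93 lower genes only in Rex1-low cells, beside 451 and 253 of all 3253, so the limit itself favours genes that differ. With 1 culture these counts describe the split and were not tested.

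**Figure D3:**
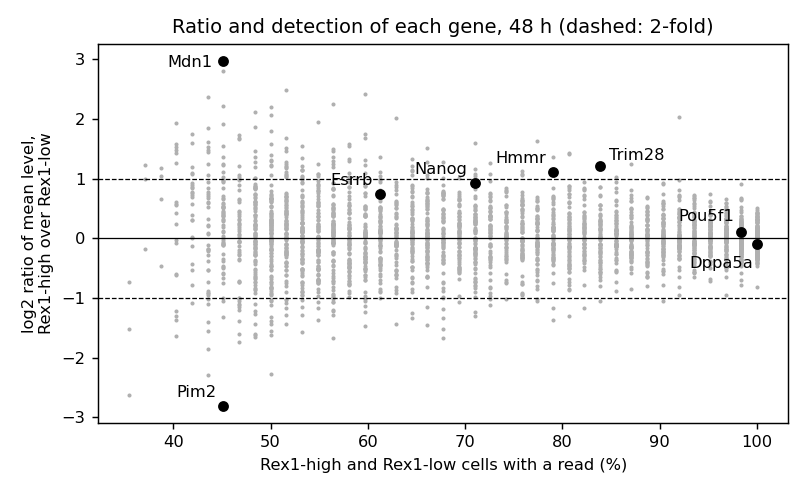
The log2 ratio of mean level, Rex1-high over Rex1-low, for 3253 genes against the share of the 62 cells with a read of the gene (dashed lines mark 2-fold, named genes are black). Ratios narrow as detection rises, from Mdn1 at 2.97 and Pim2 at -2.80 to Pou5f1 at 0.11 and Dppa5a at -0.10.

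Naive genes lay above 0 more often than below, at small ratios. Of 20 listed, 14 had a log2 ratio above 0 with no detection limit applied. With the limit, 9 of 11 lay above 0, beside 52% of all genes compared, and 0 passed 2-fold in either direction. Of these 11, Nr0b1 and Klf2 met the limit only in Rex1-high cells and Klf5 only in Rex1-low cells, and Manba, Jam2, Klf2 and Morc1 lay at 0.10 to 0.16. The median of the 11 was 0.16, against 0.02 for all genes, and it lay below 0 in 1 of 25 alternatives (-0.03 in groups of 46 cells). Over all 20 genes, a gene had a read in 49.8% of its gene and cell pairs in Rex1-high and 43.1% in Rex1-low cells. Other lists had a like difference, with 75.8% and 71.4% for core and 74.7% and 69.8% for S phase genes. The summed level of the list was 2897 ± 1419 CPM in Rex1-high, 2455 ± 1425 in middle and 2365 ± 1543 in Rex1-low cells (SD between cells), so the ranges overlapped widely.

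Nanog, a homeodomain factor that stabilizes self-renewal, had the highest ratio of the 11 genes that met the limit. It had a read in 25 of 31 Rex1-high cells (80.6%, 95% Clopper-Pearson interval 62.5% to 92.5%) and in 19 of 31 Rex1-low cells (61.3%, 42.2% to 78.2%). These intervals cover counting error only. Its level ran from 0 to 1860 CPM with a median of 225 in Rex1-high cells, and from 0 to 1760 with a median of 15 in Rex1-low cells. The middle cells had a median of 85. The means were 379 ± 457, 200.0 ± 261 and 193 ± 367 CPM, a log2 ratio of 0.93 between the outer groups. Nanog was higher on both sides of the plate, at 1.26 in columns 1 to 6 and 0.78 in columns 7 to 12, and its rho with Zfp42 over the 93 cells was 0.31. Both groups held cells without a Nanog read and cells near the top of its range.

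Other naive genes followed with wider spread. Fbxo15, an F-box gene of embryonic stem cells, had means of 384 ± 443 and 206 ± 538 CPM, a log2 ratio of 0.87, with medians of 230 and 5 CPM. Its highest Rex1-low cell was at 2865 CPM, so the Rex1-low mean rests in part on 1 cell. Esrrb, an orphan nuclear receptor of the naive network, had 130 ± 227 and 74.03 ± 129 CPM, a log2 ratio of 0.74 (0.45 to 1.07 with 1 cell left out), and a read in 22 against 16 cells. Its mean was highest in the middle cells, at 190 ± 465 CPM, so Esrrb did not order with Zfp42, and the ratio fell below 0 when reads were summed over cells, at -0.22 and at -0.26 with TMM factors. Nr0b1, encoding Dax1, was at 328 ± 413 and 204 ± 295 CPM with a log2 ratio of 0.66. Among the 11 that met the limit, Klf5 and the growth factor gene Fgf4 lay below 0, at -0.76 and -0.57. Below the limit, Gbx2 (-1.42), Klf4 (-1.12), Tfcp2l1 (-1.06) and Zfp296 (-0.28) also lay below 0, while Nr5a2 (1.98) and Pecam1 (1.23) had the highest ratios of the 20. Nr5a2 stood at -0.08 in plate columns 1 to 6 and 2.95 in columns 7 to 12. Its Rex1-high mean was 56.3 CPM, with 1 cell at 930 CPM.

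Klf4 and Tfcp2l1, also naive factors, were below the detection limit at 48 h. Klf4 had a read in 2 of 31 Rex1-high, 2 of 31 middle and 9 of 31 Rex1-low cells (6.45%, 0.791% to 21.4%, against 29.03%, 14.2% to 48.0%). Its mean was 0.806 ± 3.19 CPM in Rex1-high and 13.5 ± 34.01 CPM in Rex1-low cells, under 3 reads in both, and its highest value was 130 CPM. Tfcp2l1 had a read in 13 and 11 cells, and its log2 ratio of -1.06 rested on the cell lowest in Zfp42, being -0.12 without it. It was 3.56 in plate columns 1 to 6 and -2.24 in columns 7 to 12. Tbx3, a T-box factor gene, had a read in 7 and 6 cells. No direction is read from these genes.

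Core factors showed no common direction. Of 14 core genes listed, 12 met the limit, 6 lay above 0 and 6 below, with a median of -0.01. Without the cell lowest in Zfp42 the median was 0.003, the ratio of Pou5f1 was 0.06 and that of Dppa5a 0.02. Pou5f1 was at 355 to 3215 CPM (median 1545) in Rex1-high and 0 to 3410 CPM (median 1430) in Rex1-low cells, with means of 1563 ± 557 and 1450 ± 703 CPM and a log2 ratio of 0.11. Dppa5a, an abundant RNA-binding protein gene of pluripotent cells, had a read in every cell and a log2 ratio of -0.10, with a median of 5070 CPM in Rex1-high and 4730 CPM in Rex1-low cells. Utf1 had medians of 260 and 255 CPM, and its log2 ratio was 0.02. Sox2 was found in 21 and 14 cells at means of 17.3 ± 19.4 and 15.5 ± 36.1 CPM. The groups, which differed 4.76-fold in mean Zfp42, thus overlapped over nearly the whole range of Pou5f1.

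Trim28 encodes KAP1, the corepressor of KRAB zinc finger proteins. It was the 1 gene of the 12 past 2-fold, where 4.18% of all genes compared were higher by as much, with a log2 ratio of 1.21. Its level ran from 0 to 1260 CPM (median 200) in Rex1-high cells and from 0 to 640 CPM (median 60) in Rex1-low cells, with means of 336 ± 367 and 139 ± 177 CPM. The middle cells, at 329 ± 337 CPM and a median of 260, were like the Rex1-high cells. A read was found in 27, 27 and 25 cells, so the groups differed in level rather than in detection. Trim28 was higher on both sides of the plate (1.78 and 1.17) and above 0 in all 25 alternatives run, from 0.66 to 1.78.

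**Figure D4:**
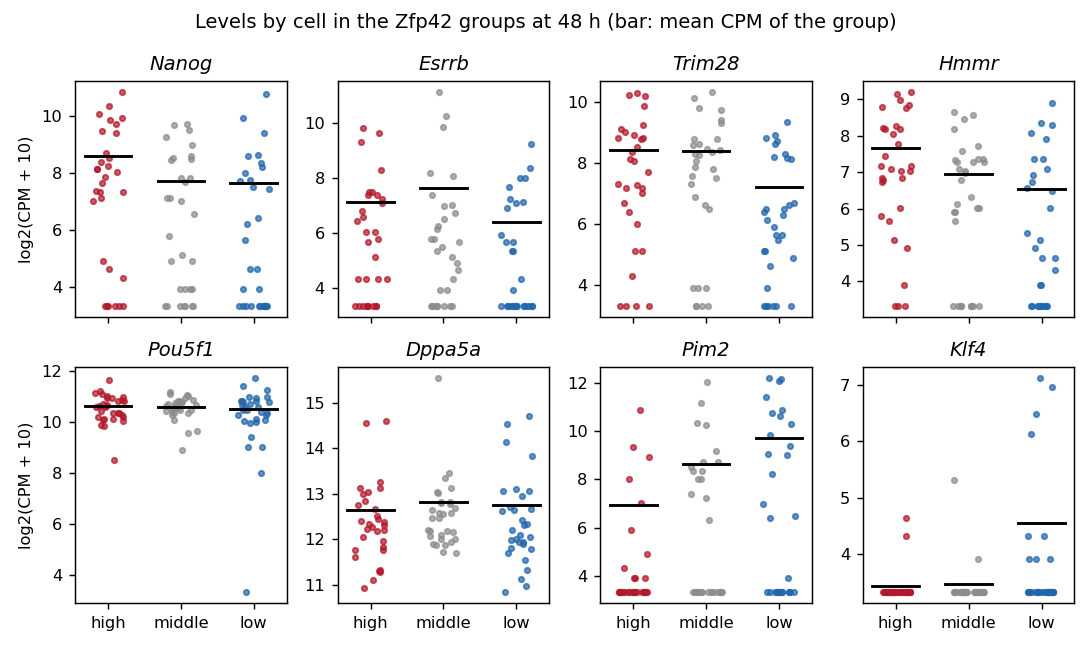
Levels of 8 genes by cell in the Rex1-high, middle and Rex1-low groups at 48 h on a log2(CPM + 10) scale, 31 points per group, with a bar at the mean CPM of the group. Points at the bottom of a panel are cells without a read, the groups overlap in every gene, and 1 Rex1-low cell has no Pou5f1.

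Genes of G2 and mitosis lay more often above 0 than genes in general. Of 20 listed, 16 had a log2 ratio above 0 with no detection limit applied. A read was found in 74.5% of the gene and cell pairs of the 20 genes in Rex1-high and 65.3% in Rex1-low cells. With the limit, 15 of 18 lay above 0, against 52% of all genes, with a median of 0.46. Bub1b, Cenpe and Cenpf met the limit only in Rex1-high cells. Mki67, a proliferation marker gene read in 11 and 15 cells, was below it at -1.83, with means of 39.2 ± 83.7 and 164 ± 462 CPM. Hmmr, a spindle and hyaluronan-binding protein gene, had a read in 28 of 31 Rex1-high cells (90.3%, 74.2% to 98.0%) and 21 of 31 Rex1-low cells (67.7%, 48.6% to 83.3%). Its means were 191 ± 174, 113 ± 111 and 82.7 ± 119 CPM from Rex1-high to Rex1-low, its medians 125, 100 and 20, and its log2 ratio 1.12. Cdc20, an activator of the anaphase-promoting complex, was at 1032 ± 727 and 624 ± 670 CPM, a log2 ratio of 0.72. The mitotic kinesin gene Cenpe had a log2 ratio of 0.97 and the spindle assembly gene Tpx2 one of 0.67.

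The summed level of the 20 genes was 6240 ± 2160 CPM in Rex1-high, 6196 ± 2396 in middle and 4841 ± 2455 in Rex1-low cells. The Rex1-low cells thus differed from both other groups, by less than 1 SD between cells. The lowest sum, 345 CPM, was in the cell lowest in Zfp42, and without it the list median was 0.38. The pattern differed between the sides of the plate, with 15 of the 18 genes above 0 in columns 1 to 6 and 9 of 18 in columns 7 to 12. Bub1b, a checkpoint kinase gene, was past 2-fold at 1.23 but stood at -0.52 in columns 7 to 12, and at 0.99 to 1.85 with 1 cell left out. Cenpf, a kinetochore protein gene, was the reverse of the list at -1.29. S phase genes were spread around 0, with 9 of 15 above it and a median of 0.02, which was -0.02 without that cell.

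Genes that set or remove DNA methylation gave no stable direction. Of 10 genes listed, 2 lay above 0 and 8 below with no detection limit applied. With the limit, 2 of 7 lay above 0, beside 52% of all genes compared, and 0 passed 2-fold. The median of the 7 was -0.23, but it kept its sign in 18 of 25 alternatives, from -0.42 to 1.24, the highest being that of medians over cells. A read was found in 60.6% of the gene and cell pairs of the 10 genes in Rex1-high and 55.2% in Rex1-low cells. Dnmt1, the maintenance methyltransferase gene, was read in 14 cells of each group, below the limit, at 52.6 ± 92.2 and 172 ± 344 CPM, a log2 ratio of -1.54. The de novo methyltransferase gene Dnmt3a was at 73.9 ± 118 and 118 ± 215 CPM (log2 ratio -0.61) with medians of 40 and 5 CPM, Dnmt3b at 365 ± 593 and 430.0 ± 820 CPM (-0.23) and Dnmt3l at 474 ± 391 and 566 ± 514 CPM (-0.25). Their rho with Zfp42 was 0.04, -0.01 and -0.01 over the 93 cells. Tet1, a 5-methylcytosine dioxygenase gene, had a log2 ratio of 0.16. The values of Dnmt3a and Dnmt3b changed sign in 4 and 7 of the 25 alternatives, and leaving out 1 cell took them to as high as -0.29 and 0.25.

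Genes of the formative and primed state showed no common direction. Of 20 listed, 9 lay above 0 and 11 below, and 2 met the detection limit. Etv5, an ETS factor gene, had a read in 27, 24 and 21 cells and a log2 ratio of 0.25. Pim2, also on this list, led the 12 largest lower ratios described below. The summed level of the list was 796 ± 856 CPM in Rex1-high and 1465 ± 1521 CPM in Rex1-low cells, of which Pim2 gave 110 and 832 CPM. Otx2 had a read in 4 Rex1-high, 12 middle and 7 Rex1-low cells, Pou3f1 in 1, 1 and 2, and Fgf5 in 1, 0 and 1. A share of 0 of 31 cells has an upper 95% bound of 11.2%. Markers of other cells differed in how often they were read. Sparc, a matrix protein gene on the primitive endoderm list, had a read in 24, 19 and 18 cells at means of 200 ± 282, 194 ± 353 and 182 ± 235 CPM, a log2 ratio of 0.13, and gave most of that list's summed level of 265 ± 287 and 237 ± 263 CPM in the outer groups. Fn1, encoding fibronectin, on the fibroblast list, had a read in 16, 18 and 12 cells and a log2 ratio of 0.40. The summed level of 8 trophectoderm markers was 9.03 ± 31.2 CPM in Rex1-high and 50.5 ± 212 CPM in Rex1-low cells, where the highest cell, at 1185 CPM, was the one lowest in Zfp42. Without it the Rex1-low level was 12.7 ± 28.1 CPM. The sums of 9 mesoderm and 8 neural markers had a median of 0 in each group. The 9 genes listed for a 2-cell-like state had no read in any group.

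Id1 and Id3, targets of BMP signalling in serum, were lower in Rex1-high cells at a log2 ratio of -0.75 each. Of 12 BMP and Id genes listed, 6 lay above 0 and 5 below, and 3 met the detection limit. The third, Id2, was at -0.32, with 0.17 in plate columns 1 to 6 and -1.47 in columns 7 to 12. Id1 had means of 158 ± 194 CPM in Rex1-high, 304 ± 377 in middle and 271 ± 333 CPM in Rex1-low cells. Id1 and Id3 were lower on each side of the plate, and neither passed 2-fold. Of 86 cytosolic ribosomal protein genes, 11 lay above 0 and the median was -0.17. Their summed level was lower in Rex1-high cells, at 68991 ± 13122 CPM, than in middle cells (84886 ± 21662) and Rex1-low cells (78120 ± 17377), and it did not fall steadily with Zfp42. Of 11 adhesion, keratin and cytoskeleton genes that met the limit, 2 lay above 0, beside 52% of all genes, and the median was -0.19, which became -0.07 without the cell lowest in Zfp42. On each side of the plate 5 of the 11 lay above 0, so the lean did not hold there.

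**Figure D5:**
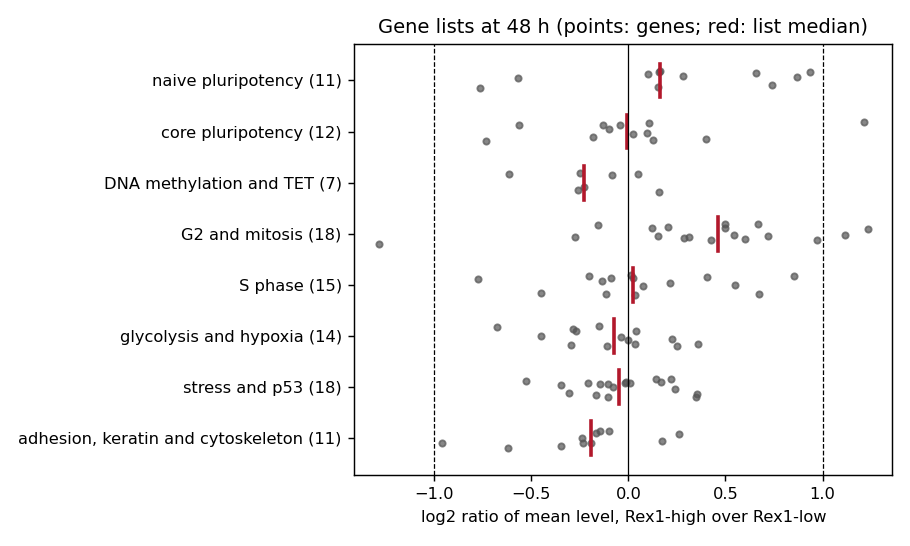
The log2 ratio of mean level, Rex1-high over Rex1-low, for the genes of 8 lists that met the detection limit (number in brackets), with the list median in red and 2-fold as dashed lines. The G2 and mitosis list has the highest median, 0.46, and the naive list lies at 0.16.

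The largest ratios came from genes read in part of the cells, where 1 cell often gave much of a group's reads. Among genes that kept their direction on both sides of the plate, the 12 largest higher ratios ran from 1.95 to 2.97, and 8 of these genes met the detection limit only in Rex1-high cells. Mdn1, a ribosome assembly ATPase gene, had a read in 19 Rex1-high and 9 Rex1-low cells, at means of 229 ± 507 and 20.5 ± 50.7 CPM, and 1 cell gave 37.4% of the Rex1-high reads. Its log2 ratio of 2.97 was 2.37 to 3.29 with 1 cell left out. Xlr3c, an X-linked gene, had a read in 20 and 10 cells at means of 164 ± 212 and 30.3 ± 66.8 CPM, a log2 ratio of 2.11, and medians of 75 and 0. Pym1, an exon junction complex factor gene, had a read in 24 and 15 cells at 86.5 ± 159 and 13.9 ± 27.9 CPM, a log2 ratio of 2.01. The others were Sap130, Ncapd3, Cnot3, Dmd, Ptpn2, Pitpnc1, Tmem209, Skiv2l2 and Ino80c. For Ncapd3 and Skiv2l2 the sign turned when medians over cells were compared.

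The 12 largest lower ratios ran from -2.80 to -1.61 and were led by Pim2, a serine/threonine kinase gene on the formative and primed list. Of these genes 9 met the detection limit only in Rex1-low cells. Pim2 had a read in 11 Rex1-high, 15 middle and 17 Rex1-low cells. It ran from 0 to 1865 CPM in Rex1-high and from 0 to 4695 CPM in Rex1-low cells, with medians of 0 and 75 and means of 110 ± 356, 392 and 832 ± 1408 CPM. One cell gave 54.5% of the Rex1-high reads. The log2 ratio of -2.80 lay between -3.76 and -1.30 in all 25 alternatives, with values of -3.30 and -2.47 on the sides of the plate. Ntmt1, an N-terminal methyltransferase gene, had a read in 6 and 16 cells at 12.1 ± 35.4 and 127 ± 245 CPM. The others were Ppip5k2, Lrpprc, Ncoa3, Cebpz, Ankrd11, Ubl3, Rad18, Cstf2, Atad2 and Sucla2. Several of these ratios rested on 1 cell. Rad18 was at -1.63, and at -0.70 without the cell lowest in Zfp42. Leaving out the cell that mattered most brought Cebpz from -1.67 to -0.61, Sucla2 from -1.61 to -0.94, Atad2 from -1.62 to -0.96, Ankrd11 from -1.67 to -1.0001 and Ubl3 from -1.65 to -1.01. It also brought Ppip5k2 from -2.30 to -1.54. Among the higher genes it brought Ptpn2 from 2.25 to 1.40, Ncapd3 from 2.48 to 1.67, Skiv2l2 from 2.07 to 1.49 and Ino80c from 1.95 to 1.34, and Tmem209 from 2.20 up to 2.93.

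Few genes tracked Zfp42 from cell to cell. Over the 93 cells Spearman's rho with Zfp42 had a median of 0.03, and 90% of the 3253 genes lay between -0.17 and 0.20. These points share 1 plate and the same thinned depth, and the values are descriptions. The highest, at 0.88, was AC124592.1, a feature without an established symbol. Without such features and ribosomal protein genes, the 10 highest were Pym1 (0.36), Liph (0.36), Lage3, Hmgxb4, Mut, Dnttip2, Hmmr (0.32), Xlr3c (0.32), Tdh and Cul1. Hmgxb4, an HMG-box protein gene, was at 308 ± 288, 105 and 95.5 ± 210 CPM from Rex1-high to Rex1-low, with a log2 ratio of 1.59 and a ratio above 0 in all 25 alternatives. Tdh, threonine dehydrogenase, an enzyme on which mouse embryonic stem cells depend, had a read in 24, 14 and 14 cells and medians of 125, 0 and 0 CPM. At the other end lay ribosomal protein genes such as Rpl9 (-0.30) and Rps29 (-0.29) and the pseudogenes Rpl9-ps4 (-0.39) and Rpsa-ps2 (-0.28), whose sharing of reads with their parent genes was not tested. The lowest others included Ntmt1 (-0.31) and Paip2 (-0.27), a regulator of poly(A)-binding protein, at 353 ± 308 and 612 ± 498 CPM.

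Mean Zfp42 was 896 ± 325 CPM at 0 h, 362 ± 263 at 24 h and 1281 ± 849 at 48 h (SD between cells, n = 90, 50 and 93), so it was highest under the 48 h label, and the Rex1-low mean of 467 CPM lay above the mean at 24 h. The same split at the other time points is set beside the values at 48 h. At 24 h the highest and lowest 16 of 50 cells differed in mean Zfp42 by a ratio of 4.63, close to the 4.76 at 48 h, and at 0 h the outer 30 of 90 cells by 2.23. The naive list median was 1.07 at 24 h, with 9 of 17 genes higher and 1 lower by 2-fold or more, 0.27 at 0 h with 1 of 19 higher, and 0.16 at 48 h with 0 of 11. Over all genes compared, 2.62% of 8134 were higher by 2-fold or more at 24 h, 0.875% of 8003 at 0 h and 4.18% of 3253 at 48 h. The detection limit was applied anew at each time point, so these shares and the list counts cover different genes. Nanog had a log2 ratio of 3.19 at 24 h, 0.39 at 0 h and 0.93 at 48 h. At 24 h its mean was 176 ± 222 CPM in the Zfp42-high and 10.3 ± 18.6 CPM in the Zfp42-low cells. Klf4 was at 1.31 at 24 h, with a read in 14 and 9 of 16 cells. The cells under the 24 h label also differ in Hprt and Y-linked genes, as given below. The differences between time points were not tested.

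Other lists were set side by side in the same way. G2 and mitosis genes lay above 0 in 18 of 20 at 0 h, 17 of 20 at 24 h and 15 of 18 at 48 h, with medians of 0.52, 0.51 and 0.46, beside 56.9%, 51.8% and 52% of all genes. Dnmt3a and Dnmt3b were lower in the Zfp42-high cells at 24 h, at -1.35 and -1.59, and at -0.61 and -0.23 at 48 h. At 0 h Dnmt3b was at 0.62, the opposite direction, and 6 of 7 genes of the methylation list lay above 0. Ribosomal protein genes lay above 0 in 14 of 85 at 0 h, 69 of 86 at 24 h and 11 of 86 at 48 h, so the 24 h cells stood apart from both others in this list. Trim28, at 1.21 at 48 h, was at 0.29 at 0 h and 0.16 at 24 h. Of the 12 genes with the largest higher ratios at 48 h, 8 were above 0 at 0 h and 10 at 24 h, with medians of 0.06 and 0.39, and of the 12 largest lower, 6 and 7 were below 0. A read of Hprt or a Y-linked gene was found in 15 of the 16 Zfp42-high and all 16 Zfp42-low cells at 24 h. At 0 h it was found in 4 of 30 Zfp42-high and 3 of 30 Zfp42-low cells, and at 48 h in 2 Rex1-high and 6 Rex1-low cells. The cells under the 24 h label thus differ from the others in these genes, and the part of this in the comparison was not tested.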

How the data were processed

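Per the labels, E14 cells (129/Ola) were sorted into 96-well plates, and reads were aligned with HISAT2 to GRCm38. The counting tool and annotation were not given in the sources used here. The authors deposited a table of read counts per gene for 288 wells and 54232 genes (29287 with a read), without molecular identifiers. The labels call it filtered and normalized, but its values are whole numbers with unequal totals, and were taken as raw. The labels D0, D1 and D2 were taken as 0, 24 and 48 h. Gene names that read as dates (25) were kept as written. Doublets were not called.

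Cells were kept with over 200000 reads, over 2000 genes and a mitochondrial share under 0.15, the study's limits with the mitochondrial limit, written there as a percentage, read as a fraction. This kept 93 cells at 48 h (D2), 50 at 24 h (D1) and 90 at 0 h (D0), 233 in all, which is not the number the study states. Zfp42 CPM on all reads set the groups. Each cell was then thinned to 200000 reads without replacement, and mean levels were compared as log2 ratios with a pseudocount of 10 CPM, for genes read in 50% or more of Rex1-high or Rex1-low cells. The ratio was tested on simulated data with known changes. Intervals of shares are Clopper-Pearson.

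Genes named are the 12 largest ratios each way that kept their sign on both sides of the plate (without Zfp42, ribosomal, mitochondrial and unnamed genes), 14 pluripotency and methylation genes, list members past 2-fold, and the 10 highest and lowest rho, with the same genes left out except ribosomal pseudogenes. Other list members, the genes shown for the cell lowest in Zfp42, and its being singled out were chosen after values were seen. The members and lists were chosen with earlier results of these data known. Alternatives covered pseudocount, thinning, filters, scaling, group size, plate sides and single cells. Python 3.11.15, numpy 2.4.6, pandas 2.3.3, scipy 1.17.1 and edgeR 4.0.16 were used.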

Additional observations from a re-analysis of the deposited data

How the results depend on the processing

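The main split gave 136 genes higher and 93 lower in Rex1-high cells past 2-fold. These counts followed the detection limit and the size of the groups. They were 220 higher without thinning, 596 and 506 with a read in 20% of cells, 13 and 7 with a read in 80%, 554 and 232 for medians over cells, and 2 and 2 for log-normalized values. Groups of 23 cells gave 218 higher and groups of 46 gave 63 and 45. Plate columns 1 to 6 gave 350 and 218, columns 7 to 12 gave 312 and 338, and no filter on cells 233 and 141. Scaling summed reads by TMM factors gave 141 lower and by median-of-ratios factors 140. The higher share of the genes past 2-fold was 59.4% in the main split, 70.5% for medians over cells and 48.0% in columns 7 to 12. Leaving out 1 cell at a time gave 137 to 160 higher and 88 to 108 lower, and leaving out the cell lowest in Zfp42, added after seeing the data, gave 146 and 95, of which 128 and 84 were shared with the main split. In a second random draw 117 of the 136 and 68 of the 93 genes were shared. Among named genes past 2-fold, signs turned for Ncapd3 (-0.74), Skiv2l2 (-0.58), Atad2 (0.58) and Cenpf (0.58) with medians over cells, for Ppip5k2 (0.37) in groups of 46, for Tfcp2l1 with log-normalized values (0.033) and in columns 1 to 6 (3.56), for Bub1b (-0.52) in columns 7 to 12 and for Tomm70a (0.42) in columns 1 to 6. Smaller ratios turned or reached 0 as well, among them in 3 of 25 alternatives for Esrrb (lowest -0.26), 4 each for Tbx3, Dnmt3l and Dnmt3a (highest 1.74), 7 for Dnmt3b (highest 0.68) and 7 each for the medians of the methylation and S phase lists. The cause was not tested. The log2 ratio of detected genes ran from -0.17 to 0.20 and that of reads from -0.24 to -0.08. No paired analysis was possible because both groups were cut from the cells of 1 plate by the level of 1 gene. The median of the G2 and mitosis list fell to 0 in columns 7 to 12 (-0.0045). At 200000 reads and 31 cells a group, ratios of genes found in part of the cells rest on few cells.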

Other observations

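The feature that followed Zfp42 most closely, AC124592.1, is not an established gene symbol and was chosen after values were seen. It had a read in 91 of the 93 cells at 48 h, with means of 118 CPM in Rex1-high and 21.1 CPM in Rex1-low cells, a log2 ratio of 2.04 and a Spearman's rho with Zfp42 of 0.88. Its reads were a median of 5.04% of the Zfp42 reads of the cell, with quartiles of 4.35% and 5.64%. GENCODE M21 holds a processed pseudogene of Zfp42, Zfp42-ps1, and whether AC124592.1 is that copy, or takes reads of Zfp42, was not tested.

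One Rex1-low cell had 12 mitochondrial reads among 1682543, a share of 0.000713%, where the next lowest of the 93 cells had 0.386%. Its Zfp42 level was 609 CPM, its Pou5f1 level 1100 CPM, and it had 3879 detected genes at equal depth.

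Among genes read in 90% or more of the cells of both groups, the extremes at 48 h were Anapc13, a subunit of the anaphase-promoting complex, at a log2 ratio of -0.95, and Polr2l, a small subunit shared by the RNA polymerases, at 0.90. For Polr2l the medians were 40 and 35 CPM, 1 cell gave 39.5% of the Rex1-high level, and the ratio was 1.27 in plate columns 1 to 6 and 0.18 in columns 7 to 12. Abce1, a ribosome recycling factor gene, was at 0.81, and the glycolytic enzyme gene Pgk1 at -0.68, with medians of 355 CPM in Rex1-high and 775 CPM in Rex1-low cells. The genes listed as neighbours of Zfp42 did not share a direction. Their summed level was 350 ± 369 CPM in Rex1-high and 358 ± 737 CPM in Rex1-low cells. Frg1 had a log2 ratio of 0.95 and a read in 29 and 24 cells, Triml2 was at 0.58 but at -0.37 in plate columns 1 to 6, and Fat1, read in 4 and 8 cells and below the detection limit, was at -3.15.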
